A study of Mus musculus with 4 samples.

Results

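The mRNA levels of 10 genes that carry the bacterial signal from Toll-like receptor 4 (TLR4) to the transcription factor NF-κB were examined in kidney and heart after cecal ligation puncture (CLP), with and without melatonin (MLT). The 10 genes were Lbp, Cd14, Ly96, Tlr4, Tlr2, Myd88, Nfkb1, Rela, Nfkbia and Tnfaip3, found by matching their mouse symbols to the Ensembl identifiers in the count data. All 10 were found among the 55401 genes counted. The data comprised 4 RNA-seq libraries from C57BL/6 mice, 1 each from CLP kidney, CLP + MLT kidney, CLP heart and CLP + MLT heart. All 4 libraries therefore came from mice with CLP, an operation in which the ligated and punctured cecum leaks gut bacteria into the abdomen, and no sham library was analysed here. By the methods of the study the mice were males aged 8 weeks. Those of the CLP + MLT group drank melatonin at 25 μg/ml for 14 days before CLP. Kidneys were taken 24 h after CLP. These sources do not describe how the hearts were obtained, what was in the drinking water of the CLP group, whether a library came from 1 mouse or several, or what the number in the label MLT4 means.

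Lipopolysaccharide, the endotoxin of Gram-negative bacteria, is lifted out of bacterial membranes by the plasma protein LBP, handed to the membrane or soluble protein CD14, and loaded onto MD-2 (the product of Ly96) bound to TLR4. The receptor then recruits the adaptor MyD88, and a chain of kinases leads to the destruction of the inhibitor IκBα (the product of Nfkbia), which frees the NF-κB dimer of p50 (from Nfkb1) and p65 (from Rela) to enter the nucleus. Nfkbia and Tnfaip3, which encodes the ubiquitin-editing enzyme A20, are themselves induced by NF-κB and shut the signal down, and TLR2 detects bacterial lipoproteins through the same adaptor. In kidney the pathway operates in macrophages and endothelium and also in tubular epithelium, and in heart in macrophages, endothelium and cardiomyocytes.

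Between 15883057 and 22927905 reads per library fell on genes, and the 10 genes together held 1988 to 4741 of them. In the kidney libraries the tubular gene Kap stood at 18289.8 and 28549.8 CPM (read counts scaled to a common library size), and the cardiomyocyte gene Myh6 at 12817 and 9768 CPM in the heart libraries, so each tissue label was met by its markers. The heart libraries also held kidney transcripts: 10 of 10 kidney epithelium markers were detected there, at a median of 2.37% of the kidney level for CLP and 3.99% for CLP + MLT. Because each group had 1 library, no difference could be set against the spread between mice, and no test of melatonin was possible. Each interval below is a 95% interval of the read counts alone. A gene was taken as past the fold when the TMM-scaled ratio of CLP + MLT over CLP was at least 1.5-fold in either direction and the counting interval of its log2 ratio lay on 1 side of 0. PCR copies are not independent molecules, and fewer cells of a type cannot be told apart from less RNA per cell in whole tissue.

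In kidney, all 10 genes had log2 ratios below 0, and 4 of them were past the fold, Cd14, Tlr4, Lbp and Myd88, all lower in the CLP + MLT library. Over the 16932 genes that averaged 10 counts or more, 18.1% were past the fold in either direction, 9.1% as higher and 9.02% as lower. The median log2 ratio of the 10 genes was −0.50, and that of all genes 0.0029. The kidney libraries also differed in mitochondrial reads, 14.8% of reads on genes for CLP and 24.2% for CLP + MLT, and in the kidney epithelium markers, 4 of 10 past the fold as higher and 1 as lower, with a sum of 27003 and 38433 CPM and none at 0. Their part in the kidney results was not tested. In heart the 10 genes went both ways, 5 above 0 and 5 below, with a median of 0.052 beside 0.0023 for all genes. Past the fold there were 3, Lbp, Tlr2 and Tlr4, again all lower in the CLP + MLT library. Of the 15871 genes measured in heart 18.9% were past the fold, 8.51% as higher and 10.4% as lower. Cardiomyocyte markers were lower there too, 5 of 10 past the fold and none higher, with a median of −0.84, a sum of 34364 CPM for CLP and 21763 CPM for CLP + MLT, and none at 0. Their part in the heart results was not tested. All 10 genes passed the filter on low counts in both tissues. Scaling by library size only moved the share of higher genes among all kidney calls from 50.2% to 25.3%, with a shift of the median of all genes to −0.19, and then 7 of the 10 genes were past the fold in kidney, all lower, beside 15.7% of all genes as lower at that setting.

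**Figure D1:**
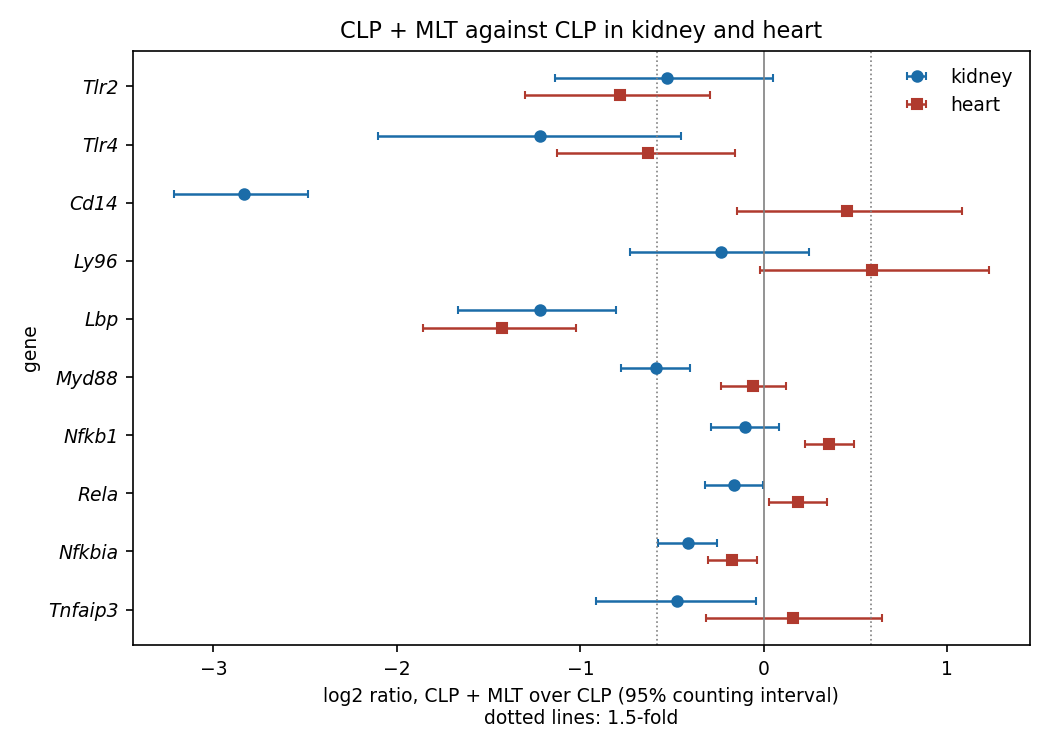
Log2 ratio of CLP + MLT over CLP (x axis) for each of the 10 genes (y axis), with circles for kidney and squares for heart; bars are 95% counting intervals of 1 library against another and dotted lines mark 1.5-fold. Cd14 in kidney stands alone at −2.83, Lbp lies left of the dotted line in both tissues, and Nfkb1 and Rela lie between the dotted lines.

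Among the 10 genes, Cd14 in kidney showed the widest difference. Cd14 (ENSMUSG00000051439.7, mm10 chromosome 18 from 36725067 to 36726798, minus strand) encodes the coreceptor that passes lipopolysaccharide to TLR4 and MD-2. It had 787 counts in the CLP kidney library and 69 in the CLP + MLT kidney library, against 41 and 56 in the CLP and CLP + MLT heart libraries. The CLP kidney library was thus set apart from the other three. Scaled, Cd14 in kidney stood at 32.1 CPM for CLP and 4.48 CPM for CLP + MLT, a 7.12-fold lower level with a log2 ratio of −2.83 (−3.22 to −2.48). Only 0.413% of all genes measured in kidney had a lower log2 ratio. In heart the log2 ratio of Cd14 was 0.45 (−0.15 to 1.08), with an interval that included 0, and this depth could not show a difference. Heart minus kidney, the log2 ratio differed by 3.29 (2.61 to 3.97, counting error only). With all 4 libraries scaled together, the Cd14 level of CLP kidney was 10.3 times that of CLP heart, and between the CLP + MLT libraries the kidney level was 1.01 times that of heart, with a log2 interval of −0.51 to 0.56. Kidney transcripts at the median share of the epithelium markers would amount to 24.6% of the Cd14 level in CLP heart and 4.05% in CLP + MLT heart. The shares of single markers ran from 0.68% to 19.6% in CLP heart and from 1.13% to 22.3% in CLP + MLT heart, so these amounts are uncertain. With the median share subtracted, an alternative chosen after the data were seen, the heart log2 ratio became 0.80 and Cd14 was past the fold as higher. That value carries the same uncertainty.

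Monocytes and macrophages are a well-known source of Cd14, and their markers are given beside it. Of 12 macrophage markers 11 passed the filter, 10 of them with log2 ratios above 0 and 3 past the fold as higher in the CLP + MLT kidney library, with a median of 0.31. The one below 0 was Cd68, a lysosomal protein of macrophages, with 157 and 70 reads and a log2 ratio of −0.49 (−0.92 to −0.08). The summed level of the 12 markers was 142.2 CPM in the CLP kidney library and 263.7 CPM in the CLP + MLT kidney library, and none was at 0. Most of that difference came from Csf1r, at 46.5 and 101.9 CPM, and the lysozyme gene Lyz2, at 22.5 and 79.2 CPM. Of the 11 measured, 8 were not past the fold. Csf1r, the receptor for the macrophage growth factor, went from 1140 to 1569 reads, with a log2 ratio of 1.13 (1.02 to 1.24). The neutrophil markers were lower on balance, with a median of −0.72 over the 7 of 12 that passed the filter, 3 past the fold as lower and 1 as higher. Their summed level was 24.1 CPM for CLP and 16.7 CPM for CLP + MLT in kidney, S100a9, a calcium-binding protein of neutrophils, had the most reads, 278 and 104, and Ly6g, Mpo and Elane were at 0 in both kidney libraries, where 3 counts would be 0.122 and 0.195 CPM. The part of either cell type in the Cd14 result was not tested.

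Lbp (ENSMUSG00000016024.9, chromosome 2 from 158306493 to 158332852, plus strand), which encodes the lipopolysaccharide carrier that is best known as an acute phase protein of liver, was the only one of the 10 genes with a counting interval wholly beyond 1.5-fold in both tissues. It had 220 counts in CLP kidney and 59 in CLP + MLT kidney, and 185 in CLP heart and 68 in CLP + MLT heart. In each tissue the CLP + MLT library was the lower one, at 3.83 against 8.97 CPM in kidney and 4.20 against 11.3 CPM in heart. The log2 ratio was −1.22 (−1.67 to −0.81) in kidney and −1.43 (−1.86 to −1.03) in heart, levels 2.33-fold and 2.69-fold lower. A counting interval wholly beyond 1.5-fold was seen for 6.97% of all genes in kidney, 3.57% as higher and 3.4% as lower, and for 7.35% in heart, 2.89% as higher and 4.45% as lower. It was seen among the 10 genes for Cd14 and Lbp in kidney and for Lbp in heart. The log2 ratio in heart minus that in kidney was −0.21 (−0.78 to 0.37). Alb, the albumin gene of hepatocytes, stood at 4.65 CPM in CLP kidney and 4.61 CPM in CLP + MLT kidney, a log2 ratio of −0.01 (−0.46 to 0.43). In heart Alb was also lower, at 8.59 and 4.32 CPM with a log2 ratio of −0.99 (−1.43 to −0.57). The 10 hepatocyte markers summed to 263.0 and 366.9 CPM in the kidney libraries and to 20.9 and 16.4 CPM in the heart libraries. The most abundant in CLP kidney was Apob, the lipoprotein gene, at 118.7 CPM with a log2 ratio of −0.08 (−0.17 to 0.0033), and in CLP + MLT kidney Serpina1a, a secreted protease inhibitor, which was higher there at 1.17 (1.09 to 1.25). Of the list Ahsg, Tat and Cyp3a11 were at 0 in both kidney libraries, Cps1 was at 0 in CLP + MLT kidney, and Cps1 and Cyp3a11 were at 0 in both heart libraries. In heart 6 passed the filter, 3 past the fold as lower and 1 as higher, with a median of −0.59, and the part of hepatocyte RNA in the Lbp results of either tissue was not tested.

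Tlr4 (ENSMUSG00000039005.13, chromosome 4 from 66827584 to 66930284, plus strand), the signalling receptor for endotoxin, was sparsely covered. Counts were 64 in CLP kidney and 17 in CLP + MLT kidney, and 94 in CLP heart and 60 in CLP + MLT heart. The CLP + MLT library was the lower one in both tissues, by 2.33-fold in kidney and 1.55-fold in heart. The log2 ratio was −1.22 (−2.11 to −0.45) in kidney and −0.63 (−1.13 to −0.16) in heart, and the difference between the tissues, 0.59 (−0.31 to 1.49), was within counting error. With all libraries scaled together, Tlr4 was 2.71 times higher in heart than in kidney for CLP and 4.18 times higher for CLP + MLT. Ly96 (ENSMUSG00000025779.10, chromosome 1 from 16688051 to 16709611, plus strand), whose product MD-2 holds the lipid part of endotoxin, did not share this pattern. In kidney 105 and 56 reads gave a log2 ratio of −0.23 (−0.73 to 0.25), and in heart 38 and 57 reads gave 0.59 (−0.02 to 1.23). The heart value of Ly96 was past the fold as higher when the libraries were scaled by upper quartile, by library size only or over all 4 libraries together, and when the trend on gene length was removed, the highest being 0.73.

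Per base of exon, which removes both the scaling between libraries and the length of the genes, the parts of the receptor complex stood in different proportions. The level of Cd14 was 39.4 times that of Tlr4 in CLP kidney and 13.0 times in CLP + MLT kidney, and 1.40 and 2.99 times in CLP and CLP + MLT heart. The level of Ly96 was 8.93 and 17.9 times that of Tlr4 in the CLP and CLP + MLT kidney libraries, and 2.20 and 5.17 times in the heart libraries. The proportion of Cd14 to Tlr4 was therefore lower with melatonin in kidney and higher in heart, and that of Ly96 to Tlr4 was higher with melatonin in both. These proportions rest on as few as 17 counts of Tlr4, and no interval was computed for them.

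Tlr2 (ENSMUSG00000027995.10, chromosome 3 from 83836272 to 83841767, minus strand) encodes the receptor for bacterial lipoproteins. It had 83 counts in CLP kidney, 36 in CLP + MLT kidney, 94 in CLP heart and 54 in CLP + MLT heart. The CLP + MLT library was lower in heart, where the log2 ratio was −0.78 (−1.30 to −0.29). In kidney the log2 ratio was −0.53 (−1.14 to 0.05) and the interval reached past 0. Neutrophil markers, from cells that carry Tlr2, summed to 55.4 CPM in CLP heart and 39.2 CPM in CLP + MLT heart, with 3 of the 6 measured there past the fold as lower, none as higher, a median of −0.68, and Ly6g, Mpo and Camp at 0 in both heart libraries. Their part in the heart values of Tlr2 and Tlr4 was not tested. Myd88 (ENSMUSG00000032508.8, chromosome 9 from 119335934 to 119341411, minus strand) encodes the adaptor that both receptors share. Its counts were 787 in CLP kidney and 328 in CLP + MLT kidney, 1.505-fold lower, with a log2 ratio of −0.59 (−0.78 to −0.40). This value lay close to the limit of 1.5-fold and fell short of it, at −0.57, with scaling by upper quartile. In heart Myd88 had 554 and 529 counts and a log2 ratio of −0.06 (−0.23 to 0.12). The gene shares 11.3% of its exon bases with Acaa1a on the other strand, where reads could not be assigned to 1 gene without strand.

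**Figure D2:**
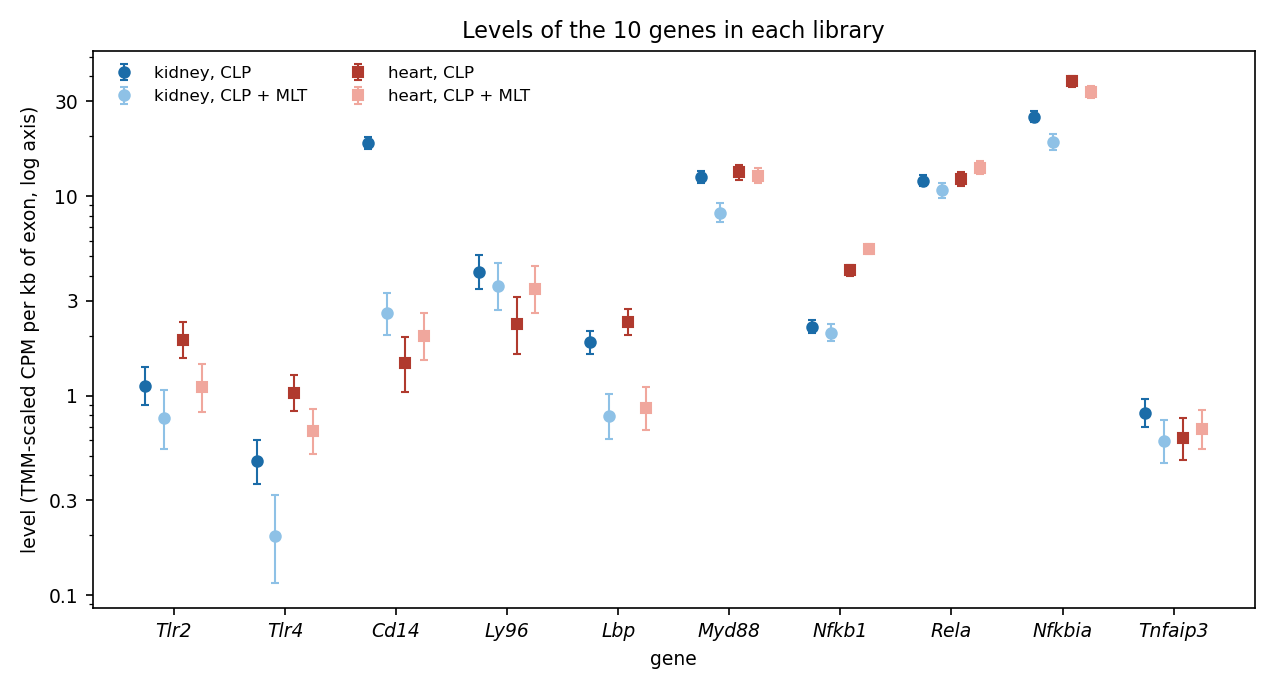
Level of each of the 10 genes in the 4 libraries as TMM-scaled CPM per kb of exon (log axis); circles are kidney, squares heart, dark colours CLP and light colours CLP + MLT, and bars are 95% Poisson intervals of the counts. Nfkbia is the highest gene in every library, and Cd14 in CLP kidney, at 18.5, lies far above its level in the other three libraries.

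The subunits of NF-κB itself differed little. Nfkb1 (ENSMUSG00000028163.17, chromosome 3 from 135584655 to 135691547, minus strand), the gene of p105 and p50, had 658 counts in CLP kidney, 385 in CLP + MLT kidney, 835 in CLP heart and 1062 in CLP + MLT heart. The log2 ratio was −0.10 (−0.29 to 0.08) in kidney and 0.36 (0.22 to 0.49) in heart. Rela (ENSMUSG00000024927.8, chromosome 19 from 5637483 to 5648130, plus strand), the gene of p65, had 903 and 507 counts in kidney and 612 and 691 in heart. Its log2 ratio was −0.16 (−0.32 to −0.0022) in kidney and 0.18 (0.026 to 0.34) in heart. All 4 intervals lay inside 1.5-fold, so a difference of that size was not seen in either tissue within counting error. With all libraries scaled together, Nfkb1 was 2.35 times higher in heart than in kidney for CLP and 3.35 times higher for CLP + MLT, and Rela 1.26 and 1.65 times higher. The proportion of Nfkb1 to Rela per base of exon was 0.186 and 0.193 in the CLP and CLP + MLT kidney libraries and 0.348 and 0.391 in the heart libraries, so it differed more between the tissues than with melatonin.

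The NF-κB-induced inhibitors were compared next, together with the promoters of the genes for which a sequence was at hand. Nfkbia (ENSMUSG00000021025.8, chromosome 12 from 55489410 to 55492647, minus strand) had 988 counts in CLP kidney, 465 in CLP + MLT kidney, 988 in CLP heart and 871 in CLP + MLT heart. The CLP + MLT library was lower in both tissues, beyond counting error and under 1.5-fold, with log2 ratios of −0.41 (−0.58 to −0.25) in kidney and −0.17 (−0.31 to −0.04) in heart. Tnfaip3 (ENSMUSG00000019850.11, chromosome 10 from 19000910 to 19015657, minus strand) had 146 and 66 counts in kidney and 72 and 80 in heart. Its log2 ratio was −0.47 (−0.92 to −0.04) in kidney and 0.16 (−0.32 to 0.64) in heart. Per base of exon, Nfkbia stood at 2.09 times Rela in CLP kidney and 1.75 times in CLP + MLT kidney, and at 3.08 and 2.41 times in the heart libraries. The proportion of inhibitor to p65 mRNA was thus lower in the CLP + MLT library of each tissue.

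RefSeq promoter windows of GRCm38.p6, from 250 bases before to 50 bases after the annotated start, were at hand for Tlr2, Myd88, Rela, Nfkbia and Tnfaip3, the last with 2 windows. The κB consensus, the 10-base motif that NF-κB dimers bind, was searched on both strands and was held by 3 of these 5 genes, and by 4.51% of all 32851 windows. Those 3 windows are shown, on the strand of the gene and with matches in capitals, since Tlr2, Nfkbia and Tnfaip3 are both parts of the pathway and known targets of it. The windows lie at chr3:83841559-83841858 for Tlr2, chr12:55492598-55492897 for Nfkbia and chr10:19015361-19015660 for Tnfaip3, all on the minus strand.
Tlr2: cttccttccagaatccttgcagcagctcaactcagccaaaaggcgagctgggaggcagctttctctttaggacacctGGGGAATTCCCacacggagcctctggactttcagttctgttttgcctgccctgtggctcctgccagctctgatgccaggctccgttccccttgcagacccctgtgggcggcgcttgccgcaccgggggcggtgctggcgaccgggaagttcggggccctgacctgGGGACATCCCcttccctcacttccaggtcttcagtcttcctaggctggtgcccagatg
Nfkbia: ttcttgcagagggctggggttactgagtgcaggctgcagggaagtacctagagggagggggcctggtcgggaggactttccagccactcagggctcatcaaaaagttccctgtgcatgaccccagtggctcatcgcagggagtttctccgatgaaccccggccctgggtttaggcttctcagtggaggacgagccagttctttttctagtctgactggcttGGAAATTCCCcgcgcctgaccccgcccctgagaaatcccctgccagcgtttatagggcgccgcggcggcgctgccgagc
Tnfaip3: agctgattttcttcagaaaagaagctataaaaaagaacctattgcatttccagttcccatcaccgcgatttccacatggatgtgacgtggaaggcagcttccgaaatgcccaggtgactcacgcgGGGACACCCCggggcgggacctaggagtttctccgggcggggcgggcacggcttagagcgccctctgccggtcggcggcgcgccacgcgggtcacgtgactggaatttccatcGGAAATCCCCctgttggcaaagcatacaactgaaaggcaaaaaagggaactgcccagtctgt
In Tlr2 the first capitals hold 2 overlapping matches, of which the second, GGGAATTCCC, reads the same on both strands and lies from −172 to −163, and the other capitals, GGGACATCCC, span the start from −8 to 2. In Nfkbia a single match on the opposite strand lies from −29 to −20, written GGAAATTCCC on the strand of the gene. Tnfaip3 has GGGACACCCC from −125 to −116 and GGAAATCCCC, on the opposite strand, from −12 to −3. The windows of Myd88 and Rela and the second window of Tnfaip3 hold no match. Positions count from the start that each window uses. The gene spans given above come from a separate mm10 annotation, in which Tlr2, Tnfaip3, Myd88 and Rela start further upstream. The Myd88 window, chr9:119339969-119340268, lies wholly inside its span there, which runs to 119341411 on the minus strand. Its lack of a match therefore does not cover the start of Myd88 in that annotation. Both Tnfaip3 matches lie inside its span there. The 3 genes with a match had kidney log2 ratios of −0.53, −0.41 and −0.47, and the other pair −0.59 for Myd88 and −0.16 for Rela, which overlap. Over the listed pathway genes with a window, these 5 included, the 16 measured in kidney with a match had a median log2 ratio of −0.34, with 4 past the fold as lower and none as higher. The 42 without a match had a median of −0.16, with 4 as lower and 5 as higher. In heart the median was −0.09 over 16 genes with a match, 3 of them lower, and −0.01 over 44 without, 1 lower and 4 higher. Over all genes with a window, 70 of 725 with a match in kidney were past the fold as lower (9.66%) and 51 as higher. Without a match it was 862 of 10949 as lower (7.87%) and 881 as higher. In heart it was 68 of 692 with a match as lower (9.83%) and 54 as higher. Without one it was 984 of 10460 as lower (9.41%) and 788 as higher. These are descriptions of lists and were not tested.

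**Figure D3:**
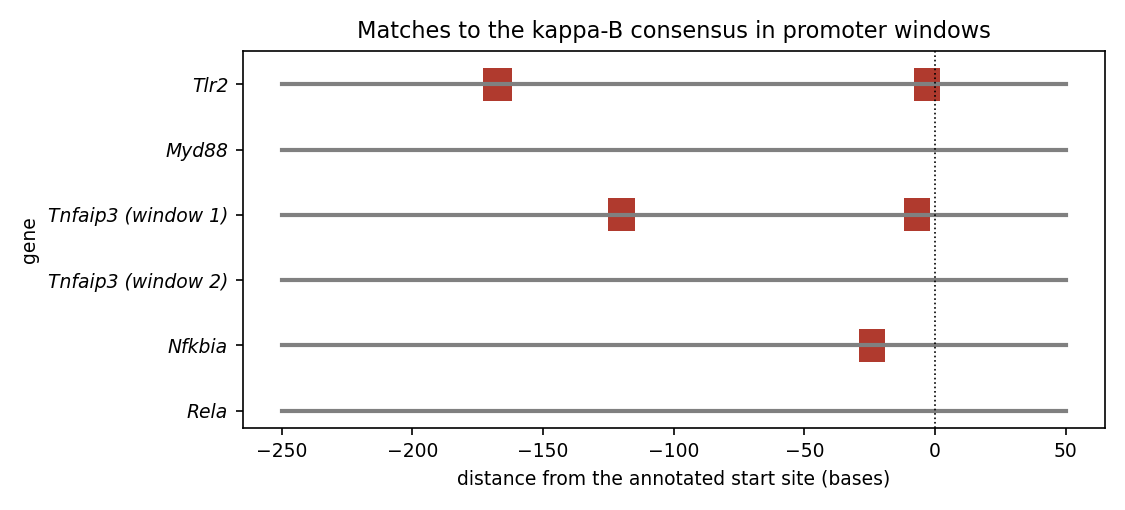
Promoter windows of the 5 genes with a RefSeq sequence (y axis; Tnfaip3 has 2 windows) against the distance from the annotated start in bases (x axis); red blocks are matches to the κB consensus. Tlr2 and the first window of Tnfaip3 each carry a block next to the start and one further upstream, and Nfkbia carries 1 block just upstream.

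Ranked per base of exon, Nfkbia led the 10 genes in each library, from 18.8 CPM per kb in CLP + MLT kidney to 37.6 in CLP heart. In CLP kidney Cd14 followed with 18.5 CPM per kb, then Myd88 (12.5) and Rela, whose intervals overlapped, then Ly96 (4.19). Nfkb1 (2.22) and Lbp (1.86) had overlapping intervals, as had Tlr2 (1.12) and Tnfaip3 (0.824), and Tlr4 was last with 0.470. In CLP + MLT kidney Cd14 was the fifth gene, with 2.59 CPM per kb, and its interval overlapped those of Ly96 (3.56) and Nfkb1 (2.07) on either side. The order there ran on through Lbp (0.793), Tlr2 (0.776) and Tnfaip3 (0.593), neighbours with overlapping intervals, to Tlr4 (0.199). In CLP heart Lbp (2.35), Ly96 (2.28), Tlr2 (1.91), Cd14 (1.45) and Tlr4 (1.04) followed Nfkb1 (4.25), each overlapping the next, and Tnfaip3 was last with 0.611. In CLP + MLT heart Tlr2 (1.11), Lbp (0.869), Tnfaip3 (0.684) and Tlr4 (0.667) formed the lower end with overlapping intervals. Tlr4 was the lowest of the 10 genes in 3 of the 4 libraries.

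The genes around these 10 in the pathway were counted in 5 lists with 76 genes, of which 63 passed the filter in kidney and 66 in heart. In kidney 6 were past the fold as higher and 7 as lower, with a median log2 ratio of −0.15, and in heart 6 as higher and 3 as lower, with a median of 0.014. Together that was 20.6% of those measured in kidney, near the 18.1% of all genes, and 13.6% in heart, under the 18.9% of all genes. The chain between receptor and IκB kinase, 18 genes such as Irak1, Irak4, Traf6, Map3k7 and Tbk1, held no gene past the fold among the 17 measured in kidney, where the ratios ran from −0.49 to 0.46. In heart only Ticam2, the adaptor TRAM that links TLR4 to interferon genes, was past the fold among 18, with 0 counts for CLP and 28 for CLP + MLT, at least 9.40-fold higher with the 0 set to a floor of 3 counts. It shares 14.5% of its exon bases with Tmed7 on the same strand, which makes its counts uncertain, and the list median of 0.0071 was the same with Ticam2 at its floor.

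Other receptors of the family were counted next. Of 12 genes 7 passed the filter in kidney, 4 past the fold as higher and none as lower, and 8 passed in heart, 3 of them higher and none lower. Tlr5 in heart fell just under the filter, with 17 and 1 counts and a log2 ratio of −3.54 (−9.46 to −1.40). The one with the most reads in kidney, Tlr12, a receptor for a protozoan protein, was not past the fold, with 400 and 173 counts and a log2 ratio of −0.54 (−0.80 to −0.28). Of the 8 in heart, 5 were not past the fold, and 2 of these, Tlr6 and Tlr13, lay below 0 at −0.09 and −0.25. Cd180 and Ly86, which encode the TLR4-like receptor RP105 and its partner MD-1 on B cells and myeloid cells, were higher in the CLP + MLT library of both tissues. Cd180 had 10 and 29 counts in kidney and 6 and 28 in heart, with log2 ratios of 2.14 (1.13 to 3.41) and 2.14 (0.93 to 3.79). Without strand, reads could be shared with Mast4 on the other strand over 4.04% of the exon bases of Cd180. For Ly86 the counts were 23 and 40 in kidney and 1 and 25 in heart, and the log2 ratios 1.45 (0.70 to 2.28) and 4.10 (2.04 to 10.01). Tlr1, a partner of Tlr2, was higher in kidney with 53 and 59 counts and a log2 ratio of 0.82 (0.27 to 1.39), and the fourth gene there was Tlr13. Tlr8, a receptor for RNA, was higher in heart with 4 and 16 counts, which just met the filter. Several of these genes have fewer than 30 counts, and all are expressed by immune cells, whose markers moved as given above for kidney. In heart 12 macrophage markers were measured, 5 above 0 and 7 below, with a median of −0.12. Past the fold, 3 of them were higher and 4 lower. The summed levels were 299.9 CPM for CLP and 330.7 CPM for CLP + MLT, with none at 0. Lyz2, the lysozyme gene of myeloid cells, had the most reads there, 998 and 2171. It alone went from 61.2 to 134.1 CPM within those sums. Their part in these results was not tested.

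Among 12 further genes of the IKK, Rel and IκB families, 3 were lower past the fold in kidney and none higher. These were Bcl3, an IκB-like coactivator, with 330 and 93 counts and a log2 ratio of −1.15 (−1.50 to −0.82), Nfkbie, the gene of IκBε, at −0.95 (−1.54 to −0.40), and Ikbkg, the gene of the kinase subunit NEMO, at −0.66 (−0.82 to −0.50). In heart Nfkbib, the gene of IκBβ, was the single one, at −0.61 (−0.92 to −0.31). The median of the list was −0.34 in kidney and −0.06 in heart. Of 14 genes that brake the signal, Socs3, a feedback inhibitor of cytokine receptors, was lower in kidney with 376 and 102 counts and a log2 ratio of −1.21 (−1.54 to −0.89), and Tnip3, a binding partner of A20, was lower in heart with 24 and 9 counts and a log2 ratio of −1.36 (−2.69 to −0.25). No gene of this list was higher past the fold in either tissue. Without strand, reads could be shared with genes on the other strand over 6.51% of the exon bases of Bcl3, 5.15% of those of Ikbkg and 14.5% of those of Nfkbib.

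The 20 listed NF-κB target genes were split in both tissues. In kidney 14 passed the filter, 3 lower and 2 higher past the fold, with a median of −0.34. The neutrophil-attracting chemokine genes Cxcl2 and Cxcl1 were lower, with 47 and 6 counts and 337 and 72 counts, log2 ratios of −2.23 (−3.81 to −1.07) and −1.55 (−1.94 to −1.18). Icam1, the adhesion molecule of activated endothelium, was the third, at −0.84 (−0.99 to −0.69). Without strand, reads could be shared with genes on the other strand over 11.72% of the exon bases of Icam1 and 11.25% of those of Il1a. The macrophage chemokine genes Ccl4 and Ccl3 were higher, with 12 and 21 counts and 10 and 17 counts. Icam1, Ccl3, Tlr13, Tlr12, Tlr6, Tlr5, Cd68 and, in kidney, Lyz2 were named after their values were seen in order to complete the counts. The cytokine genes Il1a, Il1b and Ccl2, the last encoding MCP-1, had few reads here. By RT-PCR in kidney the study reported their mRNA as raised by CLP and significantly lower with melatonin. Il1a had 29 and 10 counts, Il1b 46 and 20, and Ccl2 28 and 12 in kidney. Their log2 ratios of −0.84 (−2.07 to 0.21), −0.52 (−1.37 to 0.26) and −0.54 (−1.66 to 0.47) all had intervals that included 0, and at this depth no difference could be seen. In heart 14 passed the filter, 2 higher and 1 lower past the fold, with a median of −0.018. Tnf was higher at 1.53 (0.69 to 2.51) from 15 and 44 counts, and Nos2, the inducible nitric oxide synthase gene, at 0.90 (0.45 to 1.39) from 60 and 112. Sod2 was lower at −0.59 (−0.68 to −0.50), just beyond 1.5-fold. In kidney Sod2 went the other way, at 0.25 (0.19 to 0.30) from 6444 and 4803 counts, and was not past the fold. By RT-PCR in kidney the study reported Sod2 mRNA as lower after CLP, a loss not seen with melatonin. In heart Ccl2 had 79 and 111 counts and a log2 ratio of 0.50 (0.07 to 0.94), Il1b had 48 and 36 counts, and Il1a had 1 and 0. Endothelial markers, in the tissue layer where Icam1 acts, had a median of −0.26 in kidney with 0 of 8 past the fold, and their summed level was 286.5 CPM for CLP and 237.3 CPM for CLP + MLT. In heart their median was 0.13 with 1 past the fold as higher, and they summed to 1437.8 and 1600.8 CPM. None of the 8 was at 0 in any library, and their part in the target genes was not tested.

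**Figure D4:**
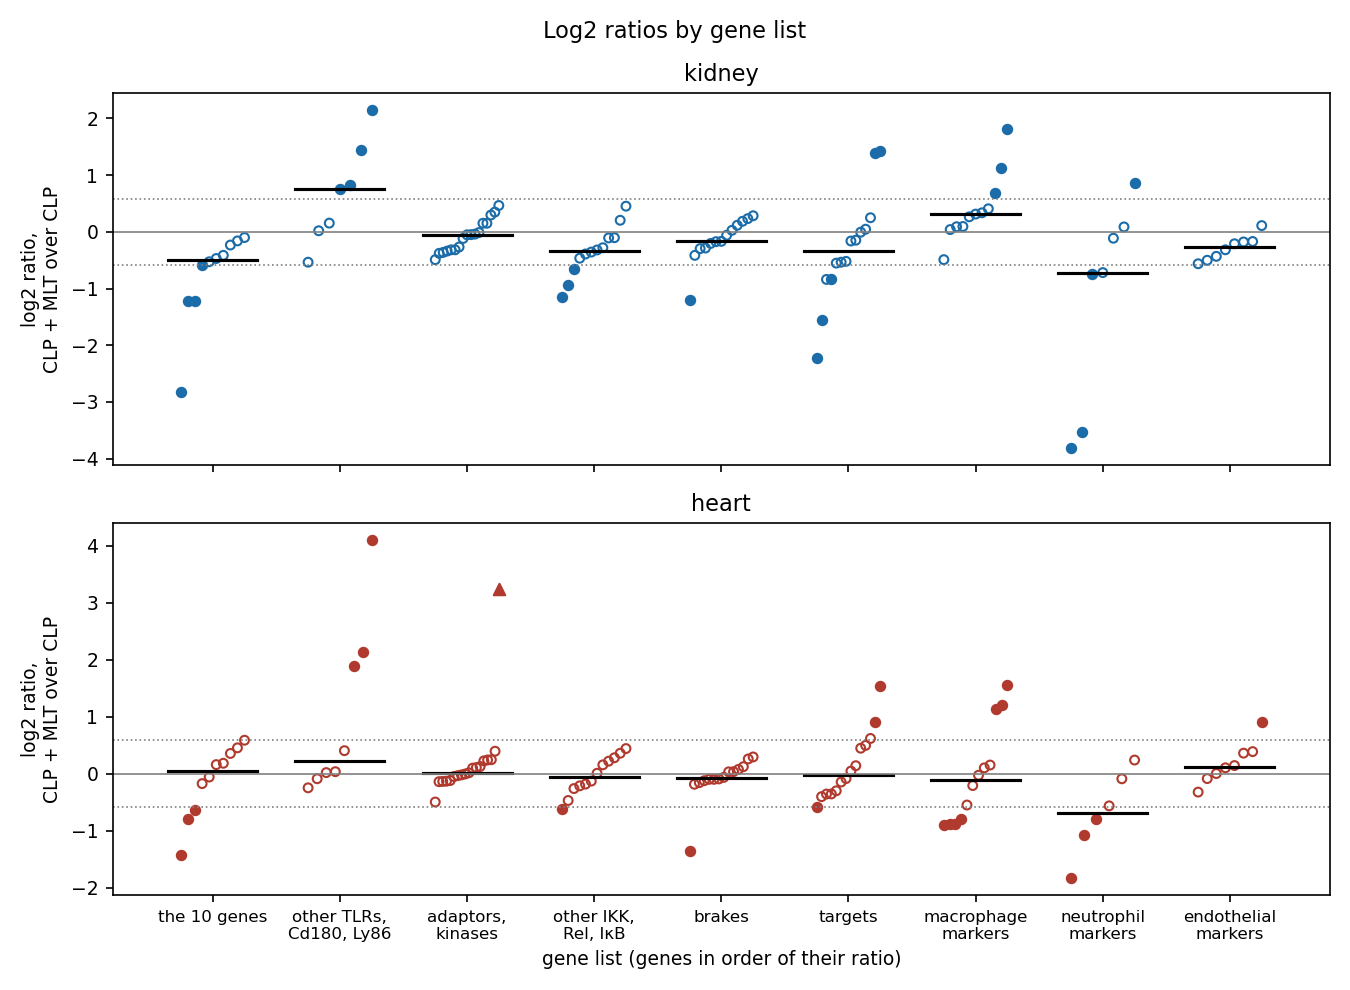
Log2 ratio of CLP + MLT over CLP (y axis) for every measured gene of each list (x axis) in kidney (top) and heart (bottom); filled points are past the fold, open points are not, black bars are medians, dotted lines mark 1.5-fold and the triangle is Ticam2 at its lower bound. The 10 genes lie below 0 in kidney and around it in heart, and the adaptors and kinases lie close to 0 apart from Ticam2.

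The genes whose levels over the 4 libraries were nearest to those of Tlr4, by Euclidean distance of the centred log2 levels among the 11797 genes that averaged 100 counts or more, were Plin5 (0.091), Uchl1 (0.109) and Plin3 (0.209). Plin5 and Plin3 encode coat proteins of lipid droplets and Uchl1 a ubiquitin hydrolase. For Nfkbia the nearest were Tmem268 (0.052), Ppp1r15a (0.072) and Zfp36 (0.072). Within a distance of 0.5 there were 21 genes for Tlr4 and 953 for Nfkbia. Tlr4 itself had 17 to 94 counts per library, under the mean asked of the genes it was compared with. Its kidney log2 ratio had a counting interval of −2.11 to −0.45, wide beside these distances, so which genes came nearest to it is uncertain. With 4 libraries such likeness rests on 4 points only and is a description of them.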

How the data were processed

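Reads on each gene were measured in 4 RNA-seq libraries. According to the labels and methods, Trim Galore removed adapters, HISAT2 2.1.0 placed reads on mm10, and HTSeq gave the raw counts per gene that the authors deposited. The annotation, the HTSeq version and its strand setting were not given in the sources used here. Rows that name no gene held 65.5% to 72.8% of the reads in each file, mainly reads without a gene or without a unique place, and were left out. Genes were named from 55141 of 55401 identifiers, with positions and exon lengths from the mm10 annotation.

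From the counts, TMM factors were computed within each tissue (edgeR 4.0.16, R 4.3.3) over genes averaging 10 counts or more. The log2 ratios carry a prior of 0.5 counts, scaled to each library, and the 95% interval is the exact Clopper-Pearson interval of the split of the reads. Levels have exact Poisson intervals. With 1 library per group no p-value is reported, and the edgeR exact test served only in alternatives with an assumed variation between mice. A fold of 1.5 was taken from the methods of the study. The 10 genes, the lists and the rules were chosen with earlier results of these data known. All 10 genes were named, and of each other list up to 3 genes past the fold with the largest ratios per tissue, together with Il1a, Il1b and Ccl2. Alternatives changed the scaling, the filter, the prior count, the fold and the assumed variation between mice, with DESeq2 1.42.0 for its size factors. The calculations were tested on simulated data.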

Additional observations from a re-analysis of the deposited data

Results flagged for a closer look

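Rela was the only one of the 10 genes whose counting intervals lay on opposite sides of 0 in the tissues, below it in kidney at −0.16 (−0.32 to −0.0022) and above it in heart at 0.18 (0.026 to 0.34). Heart minus kidney, the log2 ratio differed by 0.35 (0.12 to 0.57, counting error only). With 1 library per group this difference was not tested, and the kidney interval all but touched 0. Over the other settings the log2 ratio of Rela ran from −0.36 to −0.14 in kidney and from 0.18 to 0.24 in heart. Whether the kidney interval stays below 0 therefore depends on the scaling.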

How the results depend on the processing

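No paired analysis was possible because each group had 1 library, and for the same reason no library could be left out. In kidney the count of genes past the fold, 4 of 10, became 7 with scaling by library size only, which added Tlr2, Nfkbia and Tnfaip3. It became 2, Cd14 and Lbp, both where the interval had to lie wholly beyond 1.5-fold and when mice were assumed to vary with a coefficient of 0.2 (edgeR exact test, p at most 0.01), and 1, Cd14, at 0.4. In heart the count of 3 became 1, Lbp, at a fold of at least 2, with the interval wholly beyond 1.5-fold and at an assumed variation of 0.2, and 0 at 0.4. The cause of these moves is the stricter rule itself, except for the library size, where the median of all kidney genes moved to −0.19. The median of the genes measured ran from −0.69 to −0.47 in kidney and from −0.11 to 0.11 in heart over the other settings. The heart value of −0.11 came from the filter of 50 counts, which left 8 of the 10 genes, without Cd14 and Ly96. Where all 10 were kept, the lowest heart median was 0.047, without a filter on low counts. No single gene changed direction past its interval. With scaling by library size only, Nfkb1 at −0.30 and Rela at −0.36 in kidney lay below their main intervals. Tlr4 in kidney was not measured under the filter of 50 counts, and Tlr4 in heart fell just short of the fold, at −0.58, with scaling by library size only. Depth limits Tlr4, Tlr2, Ly96, Cd14 and Tnfaip3 in heart most, with fewer than 100 counts in each heart library.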
